A study of Mus musculus with 16 samples.

Results

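The genes described here are the replication-dependent histone genes of the mouse, taken as every gene symbol that starts with Hist1h, Hist2h, Hist3h or Hist4h. The rule finds 70 of the 48397 gene symbols in the count files and sorts them by the symbol into 6 H1, 20 H2A, 19 H2B, 12 H3 and 13 H4 genes. No measured value enters the rule. RNA was sequenced from primary hippocampal neurons of neonatal CD1 mice, which were treated with the mitotic inhibitor AraC at 3 days *in vitro* (DIV), received astrocyte conditioned medium at 10 and 13 DIV and were collected at 17 DIV. The medium was concentrated 10-fold and came from immortalized astrocytes that secrete human apoE2, apoE3 or apoE4 lipoproteins, or, for the control, from *Apoe*-/- astrocytes, which secrete no apoE. All 16 cultures, the controls included, therefore received astrocyte medium, with an apoE isoform or, in the controls, none. Each medium came from its own astrocyte line, so isoform cannot be told apart from other differences between the lines. The study also reports that its apoE4 particles were less lipidated than those of apoE2 and apoE3. There were 4 libraries per group, each group numbered 1 to 4, and the study describes them as independent cultures.

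Histones are the proteins around which DNA is wrapped. H2A, H2B, H3 and H4 form the core of the nucleosome, and H1 binds the linker DNA between nucleosomes. The replication-dependent genes lie in clusters and are transcribed mainly in S phase. Their mRNAs end, in place of a poly(A) tail, in a short stem-loop that is bound by the stem-loop binding protein Slbp, and some of these genes also make polyadenylated mRNA in cells that have left the cell cycle. The libraries were depleted of ribosomal RNA and were not selected for poly(A), so that histone mRNAs without a tail could be counted.

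The stem-loop is the sequence that marks these mRNAs and sets the members apart from other genes. Transcript models were searched for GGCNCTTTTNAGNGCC on the transcribed strand, where N is any base. In the GENCODE annotation of GRCm38 the motif followed the stop codon of 42 of the 70 members (60.0%), at a median of 32 bases after the stop codon (range 22 to 59). Among all annotated genes it was found in 47 of 55341 (0.0849%). A total of 5 forms were present, shown with the paired stem in capitals and the loop in lower case:
26 members of H1, H2A, H2B and H3: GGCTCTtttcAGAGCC
7 members, all H4, *Hist1h4m* among them: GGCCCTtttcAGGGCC
6 members, *Hist1h2bk* among them: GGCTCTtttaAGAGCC
2 members, *Hist1h4i* and *Hist2h4*: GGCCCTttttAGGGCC
1 member, *Hist2h2ac*: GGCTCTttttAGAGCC
All 5 forms have 6 base pairs in the stem. The stem GGCCCT was present in 9 of the 13 H4 genes and in no other class, whereas 4 H4 genes (*Hist1h4a*, *Hist1h4b*, *Hist1h4j* and *Hist1h4k*) have no match in their models. The motif was found in 4 of 6 H1, 11 of 20 H2A, 10 of 19 H2B and 8 of 12 H3 genes. A missing match says only that these letters are not in the annotated transcript, since some of the models stop near the stop codon.

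How far the coding parts are alike differs by class. The 13 H4 genes have 12 distinct coding sequences that encode a single protein of 103 residues, initiator methionine included. The 12 H3 genes encode 3 proteins, the 18 H2A genes with a coding sequence encode 9 and the 18 such H2B genes encode 12. Each of the 6 H1 genes encodes its own. The longest annotated coding sequence of each gene was used, so these counts depend on the transcript models. It has 543 bases in *Hist2h3c1* and 408 in the other H3 genes. In *Hist1h2bp* it has 414 and in *Hist1h2bq* and *Hist1h2br* 402, against 378 in most H2B genes. The promoters differ by class. Of the 70 members, 61 had a RefSeq promoter window of 300 bases around the start (GRCm38.p6). The CCAAT box, searched as CCAAT on both strands, was in the windows of all 49 H1, H2A, H2B and H3 genes and of 3 of 12 H4 genes, against 41.1% of 27025 genes. The octamer, searched as ATTTGCAT on both strands, was in 7 of 17 H2A and 7 of 16 H2B windows and in no H1, H3 or H4 window, against 1.97% of all genes. A total of 3 H2A and H2B pairs with the octamer are transcribed away from each other and have overlapping windows, such as *Hist1h2ah* and *Hist1h2bk*, so their matches are not independent. The letters TATAAA, on both strands, were in 57.4% of members' windows and in 15.7% of all.

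The libraries held between 14087723 and 34248172 reads counted on genes, of which 9937 to 28792 per library fell on the 70 members, 0.0545% to 0.0968%. Transcripts of neurons, such as *Snap25* and *Tubb3*, were abundant, with a summed level of 12 neuron markers of 3413 to 9224 CPM (counts scaled to library size) across libraries. Astrocyte markers were present too, with 1323 to 6644 CPM over 9 genes, so that the cultures held glia beside neurons. A level of a histone mRNA in such bulk RNA cannot tell apart fewer cells of a type and less RNA per cell. Levels below are CPM on TMM-scaled library sizes, and where genes are compared with each other they are CPM per kilobase of annotated exon. Libraries with the same number resembled each other in every group, so the values of a second fit that takes the number as a block are given where they change a call.

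H4 genes were the largest class of histone mRNA in these cultures. They held 49.2% of the 264357 histone counts, with 23.8% on H1, 17.1% on H2B, 6.23% on H3 and 3.67% on H2A genes. Summed per kilobase of exon, the mean level over the 16 libraries was 507 for H4, 150 for H2B, 105 for H1, 61.6 for H3 and 31.9 for H2A. The lowest library of H4, at 413, was above the highest of each other class. The ranges of H2B, from 101 to 208, and H1, from 73.4 to 182, did overlap.

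**Figure D1:**
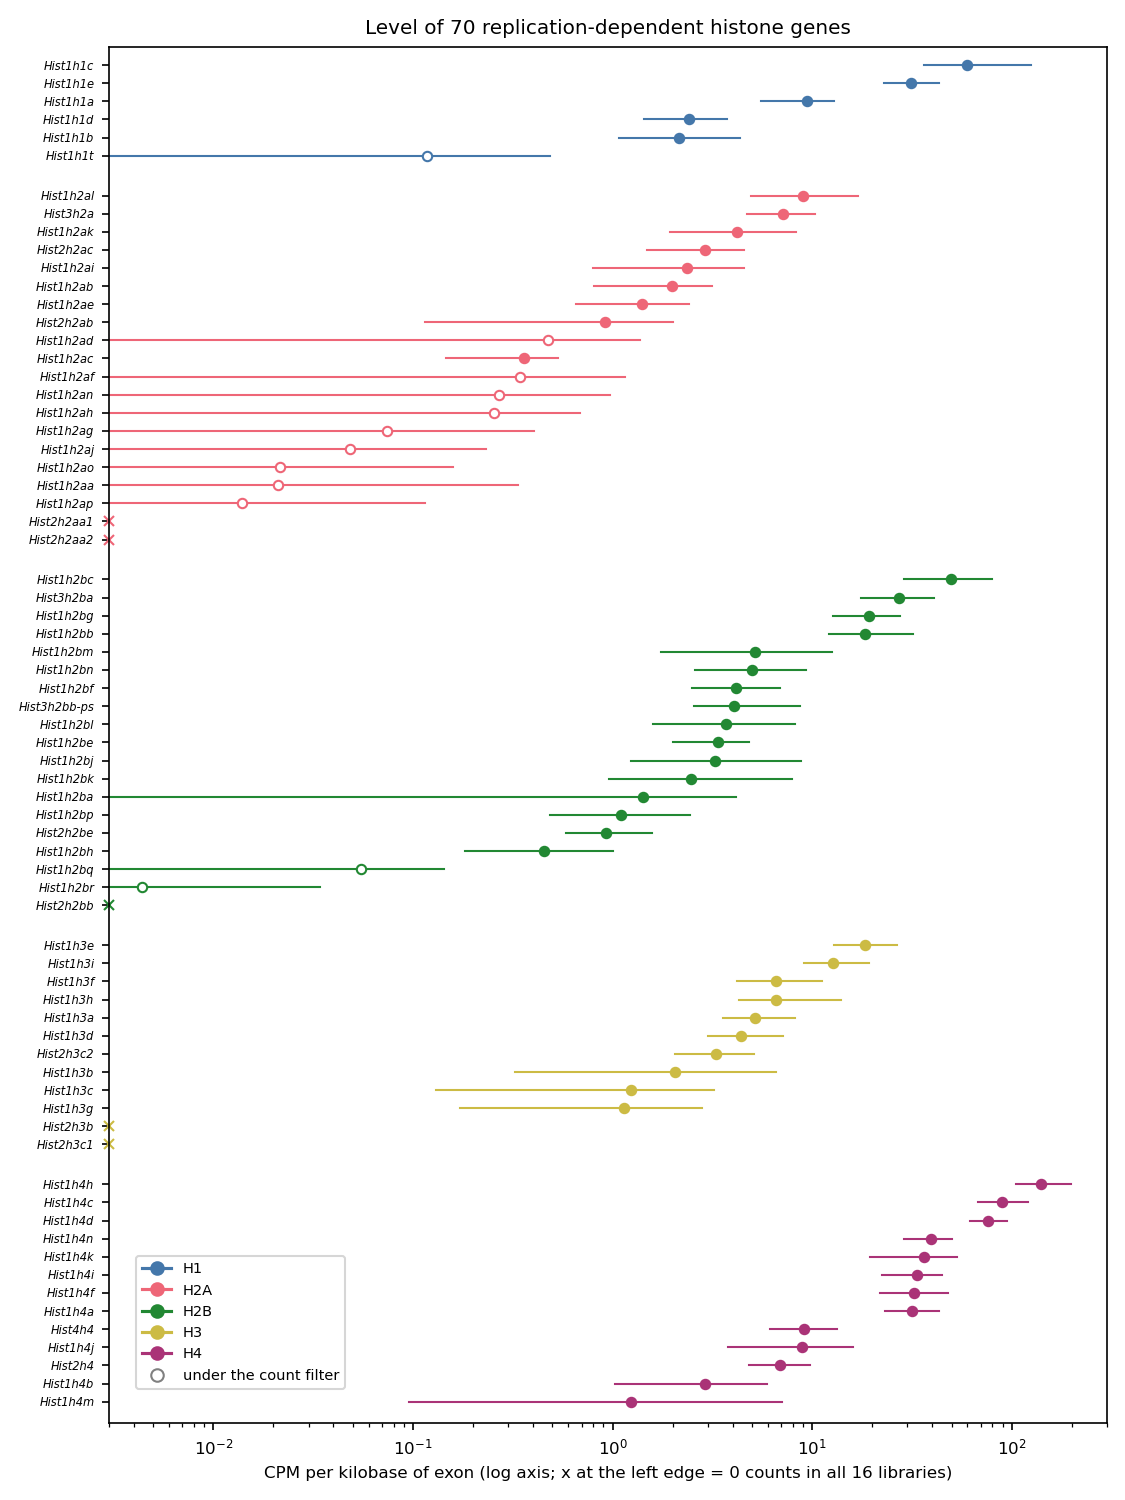
Level of each of the 70 members, as the mean CPM per kilobase of exon over 16 libraries (point, log axis) with the lowest and highest library (line, drawn to the left edge where the lowest is 0). Open points are the 12 members that had counts but did not pass the filter on low counts, and crosses at the left edge are the 5 members without any count. *Hist1h4h*, *Hist1h4c* and *Hist1h4d* have the highest levels, and H2A holds most of the open points.

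The counts were concentrated in a few members, as the plot of levels shows. The 10 most counted genes held 71.0% of the counts. The highest level per kilobase was that of *Hist1h4h*, 140 CPM per kilobase, followed by *Hist1h4c* with 88.9 and *Hist1h4d* with 76.1. The linker histone gene *Hist1h1c*, with 59.6 CPM per kilobase, and the H2B gene *Hist1h2bc*, with 49.8, came next. Of the H1 genes, *Hist1h1c* held 51.7% of the summed CPM and *Hist1h1e* 33.6%, while *Hist1h1t*, the testis linker histone (named after its values were seen), had 36 counts in all. In the H3 class *Hist1h3e* was highest, with 18.4 CPM per kilobase, and in H2A the processed pseudogene *Hist1h2al*, with 9.03, and *Hist3h2a*, with 7.18. Members whose annotated exons exceed 1000 bases, 18 of the 70, held 54.5% of the histone counts.

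H2A stood apart by its many weakly counted members. Of its 20 genes, 9 passed the filter on low counts, 9 had counts but did not pass and 2 had none. By contrast, all 13 H4 genes passed, as did 10 of 12 H3, 16 of 19 H2B and 5 of 6 H1 genes, which makes 53 members tested. The 12 members under the filter had between 2 and 92 counts in all libraries together. Exons of 19 of the 20 H2A genes lie under a microRNA gene annotated on the other strand, over 5.6% to 35.9% of their length and a median of 28.8%. No H1, H2B, H3 or H4 gene lies under one. Of these microRNA genes, the 17 with a row in the files had 1 count in total. The part of this overlap in the low H2A counts was not tested, and the sources used here do not say whether the counting used the strand.

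Overlap was complete for the members without counts. *Hist2h2aa1*, *Hist2h2aa2*, *Hist2h2bb*, *Hist2h3b* and *Hist2h3c1*, named here because they are the 5 members at 0 in all libraries, have 100% of their exon length under the exons of another annotated gene and no stretch of 50 bases that is found in no other gene. The genes that cover them fully had between 1 count in all (*Gm20634*, over *Hist2h3c1*) and 543 (*Gm20632*, over *Hist2h2aa2*). A count of 0 for these 5 cannot be read as absence of their mRNA. All 5 belong to the Hist2 cluster on chromosome 3, which with 10 genes held 2.60% of the histone counts, against 89.1% for the 56 Hist1 genes on chromosome 13, 4.74% for the 3 Hist3 genes on chromosome 11 and 3.61% for *Hist4h4* on chromosome 6. Sharing of sequence was common in the other members too. The median member had 45.5% of its 50-base stretches to itself, from 98.9% in H1 to 26.8% in H2A, and counts of near-identical members are uncertain where reads could be split or dropped.

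The summed level of each class was compared over the groups to ask whether the isoforms move histone mRNA as a whole. The groups overlapped in every class, and no test was made of these sums. H4 genes summed to 364 ± 62.6 CPM in control (SD, n = 4), 318 ± 23.3 with apoE2, 361 ± 53.1 with apoE3 and 371 ± 43.4 with apoE4. H1 genes summed to 164 ± 40.7, 165 ± 44.9, 203 ± 76.2 and 187 ± 38.9 CPM in the same order. For H2B the sums were 126 ± 27.5, 115 ± 24.8, 134 ± 32.4 and 136 ± 24.7 CPM, for H3 48.2 ± 14.4, 40.0 ± 5.64, 45.7 ± 5.05 and 49.7 ± 4.62, and for H2A 26.7 ± 4.52, 24.9 ± 0.698, 28.5 ± 3.68 and 25.9 ± 2.99. In all 15 comparisons of a class with control, the difference of means was smaller than the larger of both SDs, which include the spread between replicate numbers.

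**Figure D2:**
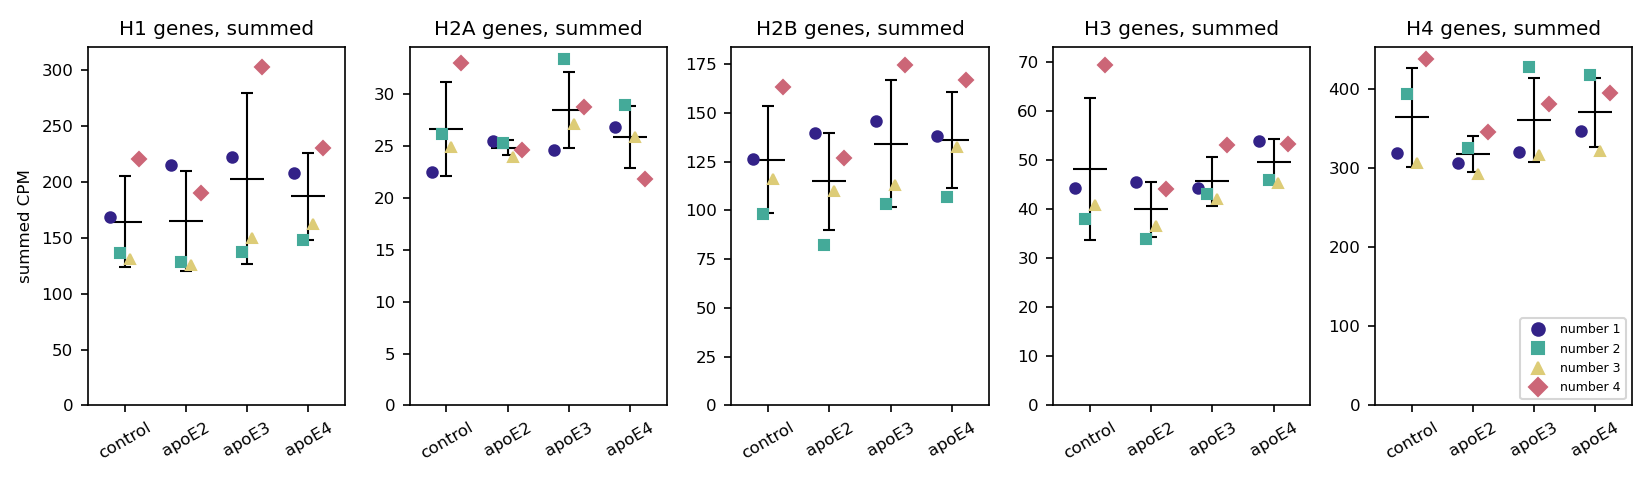
Summed CPM of the members of each class (vertical axis from 0) in the 16 libraries by group, with the mean and SD of 4 libraries as a bar; marker shape and colour give the replicate number. Groups overlap in every class, and control replicate 4 is the highest control library in all 5 classes.

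Numbers accounted for more of the spread than groups did. Of the variance of log2 sums, 79.6% lay between numbers and 10.4% between groups for H1, 79.5% and 11.5% for H2B, 66.6% and 21.0% for H4 and 52.7% and 23.6% for H3. For H2A it was 19.2% and 17.4%. The log2 ratios of group means to control were between -0.27 (H3) and 0.01 (H1) for apoE2, between -0.08 (H3) and 0.31 (H1) for apoE3 and between -0.04 (H2A) and 0.19 (H1) for apoE4. All 15 ratios were highest without control replicate 4. The H3 ratio with apoE2 was -0.04 without control replicate 4. The H1 ratio with apoE3 was 0.05 without apoE3 replicate 4 and 0.48 without control replicate 4. It came from *Hist1h1c*, as the median of the 5 H1 genes tested was -0.02 with 2 above 0. The H2A ratio with apoE4 depended on *Hist3h2a* and was 0.20 without it. Set against the control of the same number, the apoE4 sum was higher in 4 of 4 pairs for H1 and H2B and in 3 of 4 for H2A, H3 and H4. The apoE3 sum was higher in 4 of 4 for H1, 3 of 4 for H2A, H2B and H4 and 2 of 4 for H3. The apoE2 sum was higher in 0 of 4 for H4 and in 1 of 4 for each other class.

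Gene by gene, few members passed a test, all of them in comparisons of apoE4 unless the number was taken as a block, and those with the largest changes were weakly expressed. *Hist1h4m*, an H4 gene at chr13:21811746-21812147 (mm10, plus strand), was the only member with an adjusted p under 0.05 in edgeR's quasi-likelihood test of apoE4 against control, among 53 members tested, where 0.194% of all 17038 genes tested passed. It entered the test only through its apoE4 libraries, the 4 of 16 above the level the count filter asks for in at least 4 libraries, so among the genes tested it had to be higher there, and the other 52 members did not depend on 1 group in this way. With no filter its adjusted p was 0.0522. A total of 4 members, or 7.55%, met the study's thresholds of a change of at least 2-fold and an unadjusted p under 0.05, applied here to the p of edgeR's quasi-likelihood test and not of the test used in the study, against 1.15% of all genes, and all 4 were higher with apoE4. They were *Hist1h4m*, *Hist1h2bh*, *Hist1h3g* and *Hist1h2bk*. The other 2 comparisons of apoE4 gave the same direction: against apoE2, 7 members met the criterion (1.3% of all genes) and 1 passed the adjusted test (0.252%), and against apoE3, 6 met the criterion (1.25%) and 0 passed the adjusted test (0.147%), with 7 members and 4.70% of all genes at an unadjusted p under 0.05 and 1 member called by DESeq2. These comparisons share the apoE4 libraries. Each count at the criterion, and each call by edgeR's adjusted test, includes *Hist1h4m*, which entered only through apoE4. No member met the criterion on the lower side in any of them.

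**Figure D3:**
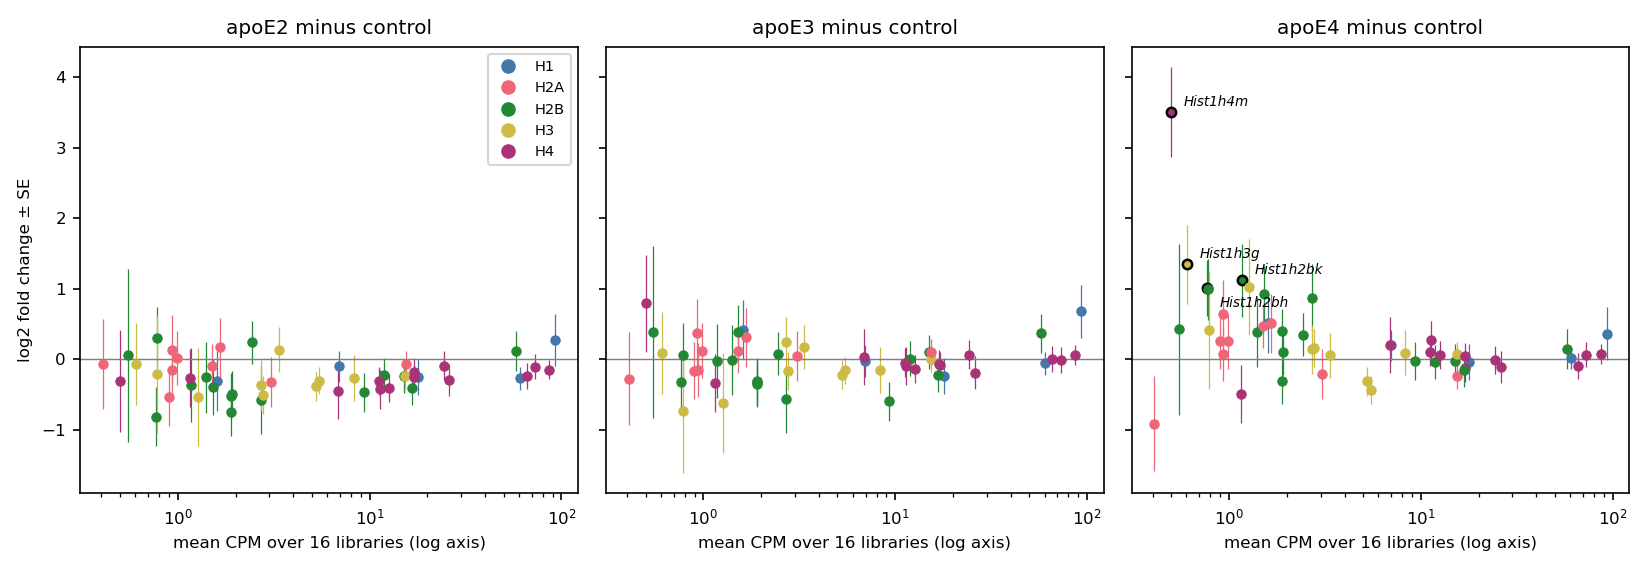
Log2 fold change to control with its standard error (vertical axis) against the mean CPM over 16 libraries (log axis) for the 53 tested members in apoE2, apoE3 and apoE4; colours give the class, and black rims with names mark members at the study criterion. The rimmed members are in the apoE4 panel, 4 genes with means under 2 CPM, while the 25 members of at least 4 CPM lie between -0.44 and 0.37 there.

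*Hist1h4m* had 1, 1, 5 and 5 counts in control libraries 1 to 4, 4, 2, 1 and 3 with apoE2, 3, 6, 6 and 3 with apoE3 and 22, 19, 22 and 56 with apoE4. In CPM the apoE4 libraries were at 1.49, 0.542, 1.22 and 2.85, all above the highest of the other 12 libraries, 0.282. Its group means were 0.131 ± 0.107 in control, 0.118 ± 0.111 with apoE2, 0.225 ± 0.0205 with apoE3 and 1.52 ± 0.969 with apoE4 (SD, n = 4). As the gene passed the filter only through apoE4, its p-values are to be read with that limit. The log2 fold change of apoE4 was 3.51 ± 0.63 (SE) to control (adjusted p = 0.0384), 3.82 ± 0.65 to apoE2 (adjusted p = 0.0221) and 2.71 ± 0.61 to apoE3 (adjusted p = 0.184). With the number as a block the adjusted p-values became 0.00129, 0.000856 and 0.0140, all under the same limit.

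Little of the *Hist1h4m* sequence is its own. It shares 89.8% of its 50-base stretches with other genes, *Hist1h4n* among them. *Hist1h4n* lies at chr13:21831767-21832196 on the minus strand. It was more abundant and was not called, with 18.1 CPM in control and 16.6 with apoE4 (log2 fold change -0.12 ± 0.20, adjusted p = 1.00). The sum of both genes was 18.2 ± 3.86 CPM in control and 18.1 ± 4.16 with apoE4. The log2 fold change of *Hist1h4m* to control ranged from 2.996 to 3.99 when each of the 16 libraries was left out in turn, but the adjusted p ranged from 0.0127 to 0.176 and stayed under 0.05 in 4 of the 16 fits. It was above 0.05 without any 1 control library, without apoE4 replicate 1, 3 or 4, without apoE2 replicate 2 or 4 and without apoE3 replicate 1, 2 or 3.

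The remaining members at the criterion encode H2B and H3. *Hist1h2bh*, at chr13:23541714-23543392 on the minus strand, was at 0.727, 0.443, 0.384 and 1.26 CPM in control libraries 1 to 4, 0.493, 0.382, 0.306 and 0.407 with apoE2, 0.305, 0.451, 0.609 and 0.853 with apoE3 and 1.69, 0.827, 1.44 and 1.68 with apoE4. The apoE4 libraries lay above all apoE2 libraries, while they overlapped with control and apoE3. Its log2 fold changes were 1.01 ± 0.40 to control, 1.82 ± 0.41 to apoE2 (adjusted p = 0.112, with the block 0.00653) and 1.32 ± 0.41 to apoE3. Without control replicate 3 the change to control was 0.80, and without control replicate 4 it was 1.43.

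*Hist1h3g*, an H3 gene at chr13:23535422-23535951 on the plus strand, was at 0.0909, 0.483, 0.454 and 0.733 CPM in control, 0.211, 0.191, 0.689 and 0.534 with apoE2, 0.152, 0.820, 0.381 and 0.459 with apoE3 and 1.49, 0.770, 0.886 and 1.37 with apoE4. Here the apoE4 libraries were above every control and apoE2 library, and 1 apoE3 library reached into their range. The log2 fold change to control was 1.35 ± 0.56 (adjusted p = 1.00, with the block 0.162). This gene did not pass the adjusted test in any comparison with either fit.

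*Hist1h2bk*, an H2B gene at chr13:22035870-22036345 on the plus strand, had 0.952 ± 0.538 CPM in control, 0.739 ± 0.244 with apoE2, 0.931 ± 0.622 with apoE3 and 2.06 ± 1.21 with apoE4. Its apoE4 libraries, at 1.97, 0.969, 1.55 and 3.77 CPM, overlapped with the 3 other groups, yet each was above the library of the same number in them. The change to control, 1.12 ± 0.51 on the log2 scale, fell to 0.65 without apoE4 replicate 4. Against apoE2 it was 1.49 ± 0.52, with an adjusted p of 0.565 that became 0.0209 with the block.

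*Hist1h3b*, *Hist1h2bm* and *Hist1h2bj* met the criterion against apoE2, the first 2 of them also against apoE3. *Hist1h3b* was at 1.14, 0.201, 1.05 and 2.25 CPM in control, 1.06, 0.229, 0.766 and 1.12 with apoE2, 0.838, 0.246, 0.648 and 1.31 with apoE3 and 3.25, 0.827, 1.33 and 4.07 with apoE4. Number 2 was the lowest library in each group, and apoE4 was above the other groups within every number. With the block it passed the adjusted test against control (log2 fold change 1.09 ± 0.26, adjusted p = 0.0310), apoE3 (1.62 ± 0.28, adjusted p = 0.00663) and apoE2 (1.57 ± 0.27, adjusted p = 0.00392). Without the block the smallest unadjusted p of the 3 was 0.0343. *Hist1h2bm* averaged 4.75 ± 1.89 CPM with apoE4, 2.59 ± 1.89 in control, 1.74 ± 0.544 with apoE2 and 1.75 ± 0.905 with apoE3. The control mean of *Hist1h2bm* rests on replicate 4, at 5.39 CPM against 1.41 to 2.06 in the others. *Hist1h2bj* had 2.32 ± 1.22 CPM with apoE4 and 0.928 ± 0.278 with apoE2, without overlap of the libraries.

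**Figure D4:**
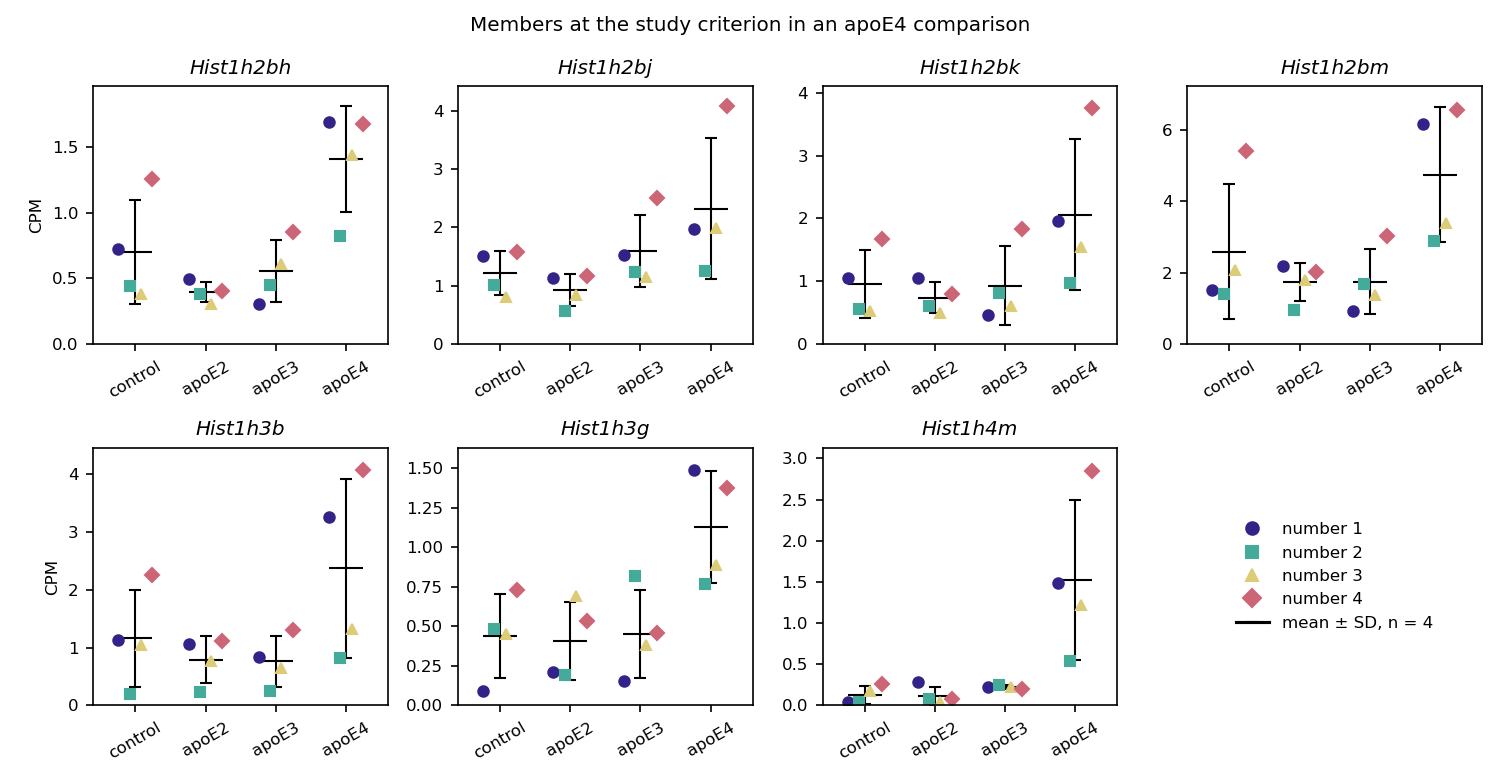
CPM (vertical axis from 0) of the 7 members at the study criterion in any apoE4 comparison, by group, with 1 point per library and the mean and SD of 4 libraries; shape and colour give the replicate number. The apoE4 points of *Hist1h4m* lie above the 12 other libraries, those of *Hist1h3b* and *Hist1h2bk* overlap with other groups and are above them within each number.

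These 7 members made up a small part of the histone mRNA. They were chosen as higher with apoE4, so the direction of their sum is fixed by the choice. Their summed CPM was 7.20 ± 4.04 in control, 5.12 ± 1.54 with apoE2, 6.27 ± 2.64 with apoE3 and 15.6 ± 7.17 with apoE4, or 0.947%, 0.764%, 0.793% and 1.98% of the histone CPM. All 7 lie in the Hist1 cluster, as do 44 of the 53 tested, and have mean levels under 4 CPM, as do 28 of the 53. Stem-loops were found in 6 of them, the exception being *Hist1h3g*, against 42 of all 70 members. Split at a mean of 4 CPM over all 16 libraries, a value chosen with the levels in view, the 28 weaker members tested had a median log2 fold change of 0.41 with apoE4 against control, and 24 of the 28 were above 0. The 25 more abundant members had a median of 0.02, with a range of -0.44 to 0.37, and 13 were above 0. The 28 weaker members include the 7 chosen as higher with apoE4, and no values of other weakly expressed genes are set beside them. The abundant *Hist1h4d*, *Hist1h4c* and *Hist1h4h* had log2 fold changes of 0.07 ± 0.14, 0.06 ± 0.18 and -0.09 ± 0.18. Over all 53 members the median was 0.11, with 37 above 0, and over all genes 0.00. The median was 0.30 with 45 of 53 above 0 without control replicate 4, 0.17 with 41 of 54 without apoE4 replicate 3, 0.06 with 35 of 54 above 0 without control replicate 1, and 0.05 with 29 of 54 above 0 without control replicate 3.

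The block added calls in the apoE4 comparisons, and all of them were higher with apoE4. With it, 2 members passed against control (*Hist1h4m* and *Hist1h3b*; 3.3% of all genes passed), 3 against apoE3 (both of these and *Hist1h2bm*; 1.76%) and 9 against apoE2 (4.44%). Each count includes *Hist1h4m*, which entered the test only through apoE4. Those against apoE2 were *Hist1h4m*, *Hist1h3b*, *Hist1h4j*, *Hist1h2bh*, *Hist1h2bj*, *Hist1h4k*, *Hist1h2bm*, *Hist1h2bk* and *Hist1h1e*. The last, a main linker histone gene, differed little, 64.3 CPM with apoE4 and 52.8 with apoE2 (log2 fold change 0.30 ± 0.08, adjusted p = 0.0480). *Hist1h4j* was at 8.09 ± 3.12 and 5.12 ± 2.15 CPM and *Hist1h4k* at 14.1 and 8.66 CPM. Without apoE4 replicate 4, the number of members at the criterion was 1 against control, 3 against apoE3 and 3 against apoE2. Against control it was also 1 without apoE4 replicate 1 or control replicate 3, 2 without control replicate 2 or apoE2 replicate 4, and 10 without control replicate 4. Against apoE3 it was also 3 without apoE4 replicate 1 and without apoE3 replicate 1 or 3. The *Hist1h4m* call against apoE2 was lost without apoE2 replicate 2, 3 or 4 and without apoE4 replicate 1 or 4.

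With apoE2, most members were slightly below control. Of the 53 tested, 44 had a negative log2 fold change and the median was -0.26, against 0.01 over all genes. All 13 H4 genes were below 0, between -0.45 and -0.09, with a median of -0.26. No member passed the adjusted test (0.0% of all genes did, with the block 0 members and 1.73% of all genes) or met the criterion (0.722% of all genes). At an unadjusted p under 0.05 there was 1 member against 2.79% of all genes, and with the block 15 members (13.3% of all genes), all lower with apoE2. DESeq2 called 0. Control replicate 4 had the highest sum among controls in all 5 classes, and without it 32 of 53 members were below 0 and the median was -0.03. That fit keeps apoE2 replicate 4 and so has unequal numbers. With the block and all libraries, 45 of 53 were below 0 and the median was -0.23.

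With apoE3, members spread evenly around control, 30 of 53 below 0 and a median of -0.02. No member passed the adjusted test (0.00587% of all genes) or met the criterion (1.96%). At an unadjusted p under 0.05 there was 1 member against 6.43% of all genes, and with the block 2 members (27.5% of all genes). By DESeq2 there was no call. Without control replicate 4, 43 of 53 members were above 0, and with the block and all libraries 26. *Hist1h1c*, the most counted linker histone gene, had the largest change above 0 among H1 genes. It was at 75.6, 57.6, 61.7 and 96.6 CPM in control libraries 1 to 4 and at 138, 56.7, 76.5 and 196 with apoE3. Its apoE3 values were higher in numbers 1, 3 and 4, and the groups overlapped. The log2 fold change was 0.68 ± 0.37 (adjusted p = 0.803), and with the block 0.55 ± 0.16 (adjusted p = 0.0325), the only member called in that fit, in which 11.7% of all genes were called. Between apoE3 and apoE2, 0 members passed (0.0% of all genes, with the block 0 members and 1.31% of all genes) or met the criterion (0.687%). At an unadjusted p under 0.05 there were 0 members against 2.28% of all genes, and with the block 9 (15.9% of all genes), all higher with apoE3. DESeq2 called 0. Of the 53 members, 46 were above 0 with a median of 0.19.

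Genes that act on histone mRNA or on its partners were compared in 3 lists with apoE4 against control, where 0.194% of all genes passed, and 3.3% with the block, so that few calls or none could be looked for. Of 12 genes of histone mRNA processing and transcription, 0 passed the adjusted test with apoE4 against control in either fit, and 2 were above 0, with a median log2 fold change of -0.03. *Slbp*, which binds the stem-loop, was at 16.1 ± 2.25 CPM with apoE4 and 16.9 ± 0.648 in control, and *Npat*, a coactivator of histone gene transcription, at 29.7 ± 2.24 and 30.2 ± 1.47. Of 11 replication-independent variants, 0 passed and 4 were above 0. *H3f3b*, which encodes the replacement histone H3.3, was at 225 ± 38.9 and 234 ± 26.1 CPM and *H3f3a* at 31.2 ± 2.02 and 34.5 ± 9.99. The variant gene *H2afz* was at 51.7 ± 5.41 and 59.4 ± 6.10 CPM. Of 13 histone chaperone and assembly genes, 0 passed and 5 were above 0. In the other comparisons no gene of these 3 lists passed without the block, and with it *H2afy2* was lower with apoE2 (1.73% of all genes called) and *H1f0* higher with apoE3 (11.7%) than in control, and *Lsm11* was lower and *Hjurp* higher with apoE4 than with apoE2 (4.44%).

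Most genes of S phase and mitosis had positive log2 fold changes with apoE4, a few of them past the test. Of 30 S phase and DNA replication genes, 24 were above 0 with a median of 0.24, and 2 passed the adjusted test (0.194% of all genes). With apoE3 25 and with apoE2 20 of the 30 were above 0, with none past the test and, with the block, 1 (*Rrm1*, with apoE3; 11.7% of all genes). The 2 called with apoE4 were *E2f2*, a transcription factor of the G1 to S transition, at 4.76 ± 2.38 CPM against 0.377 ± 0.176 in control (log2 fold change 3.62 ± 0.63, adjusted p = 0.0283), and *Cdc6*, which loads the replicative helicase, at 1.82 ± 0.690 against 0.320 ± 0.155 (2.497 ± 0.44, adjusted p = 0.0349). With the block 3 passed (3.3% of all genes), *E2f7* being the third. The control means of *E2f2* and *Cdc6* are under 0.45 CPM, the level the count filter asks for. Whether these 3 genes passed the filter only through apoE4 was not examined. The helicase subunit gene *Mcm2* was at 7.98 ± 2.21 and 7.71 ± 1.39 CPM. Of 18 mitosis genes, 18 were above 0 with a median of 0.68 and 0 passed, or 2 with the block (*Cenpf* and *Bub1b*). With apoE2, 15 of 18 mitosis genes were above 0, with a median of 0.34, and *Top2a* was called higher with the block. With apoE3, 18 of 18 were above 0 too, with a median of 0.57, and *Top2a*, the topoisomerase of dividing cells, was at 23.5 ± 9.12 CPM against 4.16 ± 2.43 in control (with the block adjusted p = 0.000559). No histone gene other than *Hist1h1c* was called there. With the block, *Cdc6*, *E2f2* and *E2f7* were higher and *Top2a* lower with apoE4 than with apoE3 (1.76% of all genes). *E2f2*, *E2f7*, *Cdc6*, *E2f1* and *Cenpf* were higher with apoE4 than with apoE2 (4.44%), *E2f2* also without the block (0.252%).

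Most markers of other cells had positive log2 fold changes to control with each isoform, those of endothelium excepted, and most neuron markers negative ones. With apoE4 against control, 9 of 9 astrocyte, 9 of 9 fibroblast and mural and 7 of 8 oligodendrocyte lineage markers were above 0, none past the adjusted test and 3, 2 and 1 with the block. With apoE3 the counts above 0, in the same order, were 8 of 9, 9 of 9 and 8 of 8, with 8, 3 and 3 called in the block fit. With apoE2 they were 8 of 9, 6 of 9 and 7 of 8, with 0, 1 and 0 called in that fit. Of all genes, the block fit called 3.3% for apoE4, 11.7% for apoE3 and 1.73% for apoE2 against control. Of 12 neuron markers, 3 were above 0 with apoE2, 1 with apoE3 and 2 with apoE4. The block fit called *Gad1*, *Snap25* and *Tubb3* with apoE3, 1 higher and 2 lower, and 0 with apoE2 and with apoE4. Summed astrocyte markers ranged from 1424 to 3189 CPM in control, 1713 to 6644 with apoE3 and 1584 to 5405 with apoE4, and summed fibroblast markers from 27.9 to 329, 34.0 to 679 and 37.1 to 572. Microglia markers were above 0 for 6 of 8 genes with apoE4 and 5 of 8 with apoE3 and with apoE2. Of 5 endothelial genes 2 were tested, with 0 above 0 with apoE2 and 1 with apoE3 and with apoE4, and the 5 together stayed at 6.72 CPM or less. No list held a gene at 0 in all libraries. The part of these cells in the histone values was not tested.

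Replicate numbers separated the histone genes more clearly than the isoforms did. The libraries of number 1 to 4 exist once in each group, and the sources used here do not state what the numbers stand for beyond the replicate. In a fit with groups and numbers, 37 of 53 members (69.8%) differed between numbers with an adjusted p under 0.05, close to the 63.8% of all genes that did. *Hist1h2ba* is among the 37, although it passed the count filter only through the numbers in which it was high. Of these 37, 30 were highest in number 4 and 20 lowest in number 3. The same shares over all genes are not given here, so these directions cannot be called particular to histone genes. By class, 5 of 5 H1, 14 of 16 H2B, 11 of 13 H4, 5 of 10 H3 and 2 of 9 H2A genes differed. The 2 H2A genes, *Hist3h2a* and *Hist1h2al*, have the highest mean CPM of their class, and level was not taken into account in these counts.

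**Figure D5:**
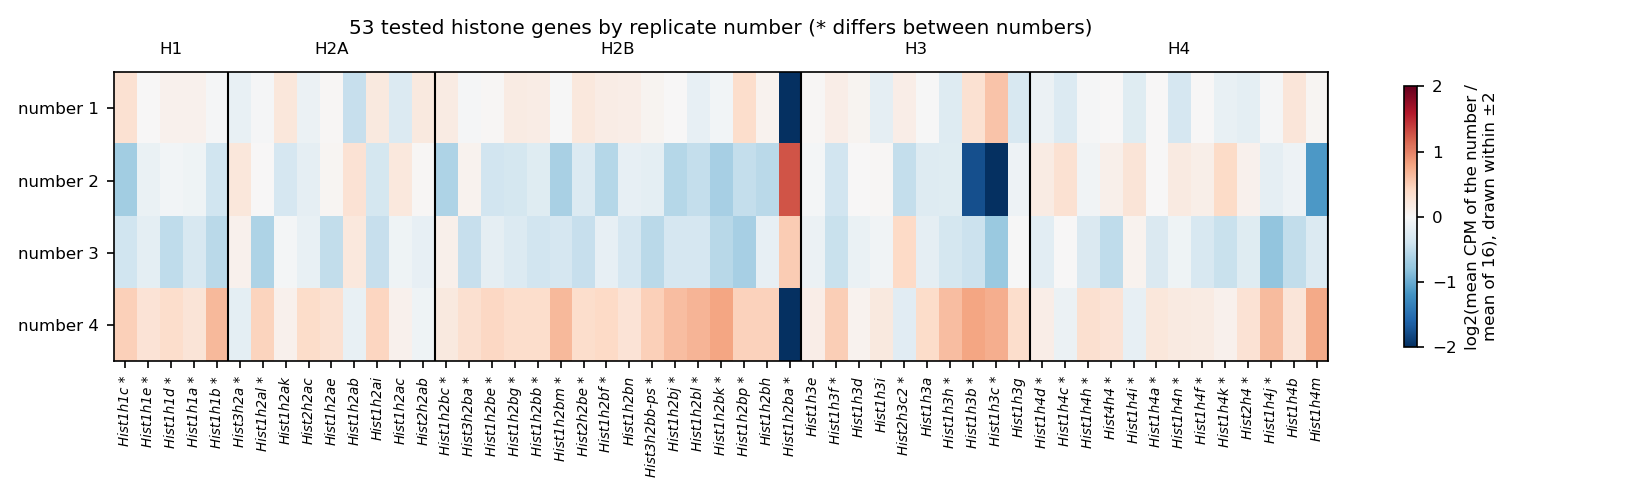
Mean CPM of each replicate number (rows) relative to the mean of 16 libraries, as log2 and drawn within -2 to 2, for the 53 tested members (columns, by class and falling mean level); stars mark an adjusted p under 0.05 between numbers. Number 4 is red for most members, *Hist1h2ba* is high in numbers 2 and 3, and *Hist1h3b* and *Hist1h3c* are lowest in number 2.

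H1 genes summed to 204 ± 24.1, 138 ± 7.87, 142 ± 16.8 and 236 ± 47.6 CPM in numbers 1 to 4 (SD over 4 groups). H2B genes summed to 137 ± 7.98, 97.6 ± 10.7, 118 ± 9.94 and 158 ± 21.1. H4 genes followed another order, 323 ± 17.4, 391 ± 45.8, 309 ± 13.0 and 390 ± 38.3 CPM, with numbers 2 and 4 the highest. The composition of histone mRNA therefore differed: H4 genes held 56.2% ± 1.18 of the histone CPM in number 2 and 43.96% ± 2.37 in number 1, and H2B genes 14.04% ± 0.212 in number 2 and between 18.2% and 18.7% on average in the others.

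*Hist1h2ba*, the H2B gene known from testis, had the smallest p of the members between numbers. All 8 of its libraries above the filter level were of numbers 2 and 3, so it entered the test only through the numbers in which it was high, and its p (adjusted p = 1.95e-07) is given as a description. In number 2 it was at 1.17, 1.11, 1.35 and 1.60 CPM in control, apoE2, apoE3 and apoE4, and in number 3 at 0.628, 0.728, 0.914 and 0.830. In numbers 1 and 4 it had 0 to 3 counts per library, or at most 0.0763 CPM. No library of numbers 2 and 3 overlapped with those of numbers 1 and 4, and within a number the 4 groups lay close together. The 8 libraries of numbers 1 and 4 were thus at or under a floor of 3 counts, and the ratio of the number means is not given. *Hist1h4j* was at 10.6 ± 1.84 CPM in number 4 and 3.99 ± 0.929 in number 3 (adjusted p = 1.26e-06), and *Hist1h3b* at 2.19 ± 1.35 in number 4 and 0.376 ± 0.301 in number 2 (adjusted p = 1.90e-05). *Hist1h1c* was at 115 ± 28.2, 57.7 ± 0.794, 70.4 ± 7.93 and 129 ± 46.6 CPM in numbers 1 to 4 (adjusted p = 4.23e-05), and *Hist1h2be*, an H2B gene, was 1.72-fold higher in number 4 than in number 2 (adjusted p = 2.29e-05). *Hist1h4m* was not among those that differed (adjusted p = 0.112), nor was *Hist1h3e* (adjusted p = 0.469).

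Genes of the cell cycle and histone lists differed between numbers at shares around the 63.8% of all genes, and all markers of 5 cell types did. Of the S phase genes 21 of 30 differed, of the mitosis genes 13 of 18, of the chaperone genes 9 of 13, of the processing genes 7 of 12 and of the variants 6 of 11. Every marker tested of neurons, astrocytes, oligodendrocytes, microglia and fibroblasts differed. Summed neuron markers were 3413 to 5409 CPM in number 4 and 8079 to 9224 in number 3, the lowest and the highest numbers on average. In number 4 summed fibroblast markers were 265 to 679 CPM and S phase genes 194 to 240, against 33.0 to 90.3 and 129 to 145 in number 3. The share of *Lars2* in the gene counts was 5.95% to 15.02% in number 1 and 0.359% to 9.82% in the others. The part of cell composition and of library properties in the histone differences between numbers was not tested.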

How the data were processed

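Ribosomal RNA was depleted from 200 ng of RNA per culture, libraries were amplified for 10 cycles, and, per the study's methods, reads were aligned with STAR to mm10 and counted per gene with HTSeq. The deposited values are raw counts per gene symbol, not normalized; annotation, strand setting and overlap mode are not given in the sources used here. Rows that name no gene (no feature, ambiguous, not aligned, not unique) held 38.4% to 73.7% of a library and were left out.

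Symbols were matched to GENCODE M21 (GRCm38, the build mm10) for coordinates, exon lengths, transcripts and shared 50-base stretches, and all 70 members matched. Counts were fitted across all genes with edgeR 4.0.16 in R 4.3.3: filterByExpr (minimum count 10, minimum total 15, proportion 0.7) with the group as design, TMM scaling, quasi-likelihood F-tests over the 16 libraries without a block, and Benjamini-Hochberg adjustment over all 17038 genes tested. A second fit took the replicate number as a block, and numbers were tested in it with 3 coefficients. After group means were removed, libraries with the same number correlated at 0.362 to 0.831 (24 pairs), lowest in number 1 with 0.362 to 0.552. Libraries of different numbers correlated at -0.736 to 0.569 (72 pairs), so the ranges overlap. The common dispersion went from 0.132 to 0.0178 with the block. The study calls the 4 libraries of a group separate cultures. DESeq2 1.42.0, other scalings, other filters and fits with 1 library left out were alternatives. Class sums have no test. The script was tested on simulated data before use.

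The members and lists were chosen with earlier results of these data known. Named are the 3 members per class with the highest mean CPM, those past the adjusted test or the criterion, 4 from the study's tables (*Hist1h2bk*, *Hist1h2bh*, *Hist1h3g*, *Hist1h4m*), the 5 with the smallest p between numbers, and from each pathway list up to 5 genes past the test plus 7 fixed ones (*Slbp*, *Npat*, *H3f3a*, *H3f3b*, *H2afz*, *Mcm2*, *Top2a*). SDs and SEs are over libraries, and the floor of 3 counts covers counting error only.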

Additional observations from a re-analysis of the deposited data

Results flagged for a closer look

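A library stood far from the other 3 of its group (Dixon's test at its 95% critical value for 4 samples) in 6 of 120 groups examined, which are the class sums and named members in the 4 groups; chance flags about 1 in 20. In control replicate 4 this was *Hist1h2bm* at 5.39 CPM (others 1.41 to 2.06), *Hist1h3d* at 8.90 CPM (others 5.13 to 5.72) and *Hist1h2ak*, an H2A gene, at 2.57 CPM (others 0.885 to 1.09). The other 3 were *Hist1h4k* at 16.7 CPM in apoE3 replicate 2 (others 8.30 to 9.26), *Hist1h3e* at 17.7 CPM in apoE4 replicate 3 (others 16.1 to 16.4) and *Hist1h4m* at 0.282 CPM in apoE2 replicate 1 (others 0.0383 to 0.0764), the last of which stands for 4 counts.

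For *Hist1h4m* the difference between the changes with apoE4 and with apoE2, which is the comparison of apoE4 with apoE2, was 3.82 on the log2 scale (edgeR's quasi-likelihood test, adjusted p = 0.0221). This is a description, since the gene passed the count filter only through its apoE4 libraries, with 4, 2, 1 and 3 counts in the apoE2 libraries, and the call was lost in 5 of 16 fits with 1 library left out, the adjusted p ranging from 0.0073 to 0.128.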

How the results depend on the processing

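Leaving out 1 library in turn moved the counts of members past the adjusted test between 0 and 1 for apoE4 against control and against apoE2, and the counts at the study criterion between 0 and 1 for apoE2 and apoE3 against control and for apoE3 against apoE2 (1 without control replicate 3, control replicate 4 and apoE2 replicate 1), 1 and 10 for apoE4 against control, 3 and 7 against apoE3 and 3 and 8 against apoE2. With the replicate block 1 member passed the adjusted test for apoE3 against control, 2 for apoE4 against control, 3 for apoE4 against apoE3 and 9 for apoE4 against apoE2; the counts at the study criterion moved with it by less than 1.5 times, while the counts at an unadjusted p, given above, and those of the lists moved more. For apoE4 against control, 0 members passed with total counts as library size, with no filter, with 1 CPM in 8 libraries or with only both groups in the fit, and 2 and 0 met the criterion with total counts and with the 1 CPM filter, which removes *Hist1h4m*. With that filter 2 met it against apoE3, and 3 met it and 0 passed against apoE2. With only both groups 0 passed against apoE2. DESeq2 called 1 member against apoE3 and 2 against apoE2, and put 1 at the criterion for apoE3 against apoE2, as did the fit with no filter. The cause of the other differences was not tested. The H2A ratio of apoE4 to control, -0.04, was 0.20 without *Hist3h2a* and 0.26 as the median of tested members; the other 343 of 345 alternatives for class ratios moved by less than 1 SD. No log2 fold change of a member at the criterion reversed in 396 alternatives, of which 52 no longer met the criterion. The count of members between numbers was 33 to 38. The counts of members above 0 without control replicate 4 were chosen after seeing the data. Counts per library limit the members under 1 CPM most.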
